A study of Mus musculus with 2 samples.

Results

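Vwf-positive vascular endothelial cells were taken as the cell barcodes of a mouse liver data set that carried von Willebrand factor (Vwf) RNA together with RNA of general endothelial genes. A barcode was kept when it held at least 200 genes and at most 20% mitochondrial unique molecular identifiers (UMIs, tags that each mark 1 RNA molecule). It was called Vwf-positive when it held at least 3 UMIs of Vwf and at least 4 UMIs in sum of Pecam1, Cdh5, Egfl7 and Ptprb. It also had to hold no Cd3d, Cd3e or Cd3g UMI, at most 2 of the B cell genes Cd79a, Cd79b and Ms4a1, at most 10 of the macrophage genes C1qa, C1qb and C1qc, and at most 5 of the stellate and fibroblast genes Lrat, Reln and Dcn. The rule found 221 Vwf-positive cells among 24093 kept barcodes, 135 of 11370 in the wild-type library and 86 of 12723 in the knockout library. Because Vwf and these other genes chose the cells, their levels are a description only.

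The study isolated non-parenchymal cells, the liver cells other than hepatocytes, from mice that had received the liver toxin carbon tetrachloride (CCl4), which scars the liver when given repeatedly, by injection into the peritoneal cavity for 8 weeks. Both groups received CCl4, so no undamaged liver was compared. The groups were Mfap2+/+ mice (WT) and Mfap2-/- mice (KO). Mfap2 encodes a glycoprotein of extracellular microfibrils. Each genotype had 1 library, made with Chromium 3′ v3 chemistry, and the labels give neither the age of the mice nor how many were used for a library. Differences between WT and KO are therefore differences between 2 libraries and carry no test, and the intervals given for them cover counting error only.

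Most endothelial cells of the liver line the sinusoids, which are fenestrated capillaries whose cells carry the scavenger receptor Stab2 and the lectin Clec4g and normally hold little Vwf. Vwf is a multimeric protein that captures platelets at injured vessel walls. It is made by endothelium of larger vessels, in the liver those of the portal tract and the central vein, and is stored with the adhesion receptor P-selectin (Selp) in Weibel-Palade bodies. Endothelium of the central vein is known for the Wnt pathway genes Rspo3, Wnt2 and Wnt9b, which instruct nearby hepatocytes, and endothelium of portal veins and arteries for genes such as Adgrg6, Efnb2, Gja5 and Bmx.

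The libraries held 82499307 UMIs in 11783 barcodes (WT) and 118226367 UMIs in 12872 barcodes (KO), with a median of 4685 and 6511 UMIs per barcode. The Vwf-positive cells were deeper than that, with 8414 UMIs at the median in WT (lowest 1533, highest 19733) and 10271.5 in KO (lowest 907, highest 26296), and 3170 and 3593.5 genes. No barcode of a Vwf-positive cell occurred in both libraries, although 40 barcodes of the whole set did. Mfap2 RNA followed the labels: 257 UMIs in the kept WT barcodes and 4 in the KO barcodes. Of all kept barcodes 1.32% in WT and 0.0314% in KO held an Mfap2 UMI. In Vwf-positive cells it was found as 4 UMIs in 4 of 135 WT cells and in 0 of 86 KO cells, a count that allows up to 3.49% of KO cells with a UMI (3 counts; the exact interval reaches 4.20%) and does not bear on cells expressing the gene without a UMI.

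The label was checked against markers that the rule did not use. The 22 endothelial genes of a list without the rule genes summed to 6745 (WT) and 6192 (KO) UMIs per 1e+06 UMIs of the cells (CPM) in Vwf-positive cells. They summed to 6262 and 5772 CPM in endothelial barcodes without Vwf that held at least 3 of the 4 endothelial genes. Of these 22 genes 6 were higher and 3 lower in Vwf-positive cells than in those barcodes (edgeR, described below, median log2 fold change 0.22). Of all 11069 genes tested there, 6.73% were higher and 4.76% lower. Tek, the angiopoietin receptor, was among the higher of the 22, and Kdr, the main VEGF receptor, Cldn5 and Ets1 were lower. The lymphatic markers Prox1, Mmrn1, Ccl21a and Pdpn reached 3 UMIs in sum in 4 of 135 WT and 3 of 86 KO cells. Of the endothelial barcodes without Vwf just described, 1.19% in WT and 4.83% in KO did so. The sinusoidal markers Stab2, Clec4g, Gpr182 and Oit3 reached 3 UMIs in sum in 115 WT (85.2%) and 68 KO cells (79.1%). The same sum was reached by 89.5% (WT) and 89.4% (KO) of those barcodes without Vwf, so this gate hardly set the groups apart. The group chosen by Vwf was therefore not free of sinusoidal RNA. Platelets also carry Vwf RNA: the platelet genes Pf4, Ppbp, Itga2b and Gp9 reached 3 UMIs in sum in 8 of 135 WT cells and in 0 of 86 KO cells. In those barcodes without Vwf the shares were 3.56% (WT) and 1.64% (KO).

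Vwf was spread over a wide range within the group. A WT cell held between 3 and 18 Vwf UMIs with a median of 5, and a KO cell between 3 and 29 with a median of 6. At least 10 Vwf UMIs were found in 26 WT and 22 KO cells. Just inside the threshold, 32 WT and 18 KO cells held exactly 3 Vwf UMIs, and just outside it 77 WT and 27 KO endothelial barcodes held 2. The Vwf gene lies at chr6:125546774-125686679 on the plus strand (GRCm38, GENCODE M21), and Mfap2 at chr4:141010418-141015984 on the plus strand.

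**Figure D1:**
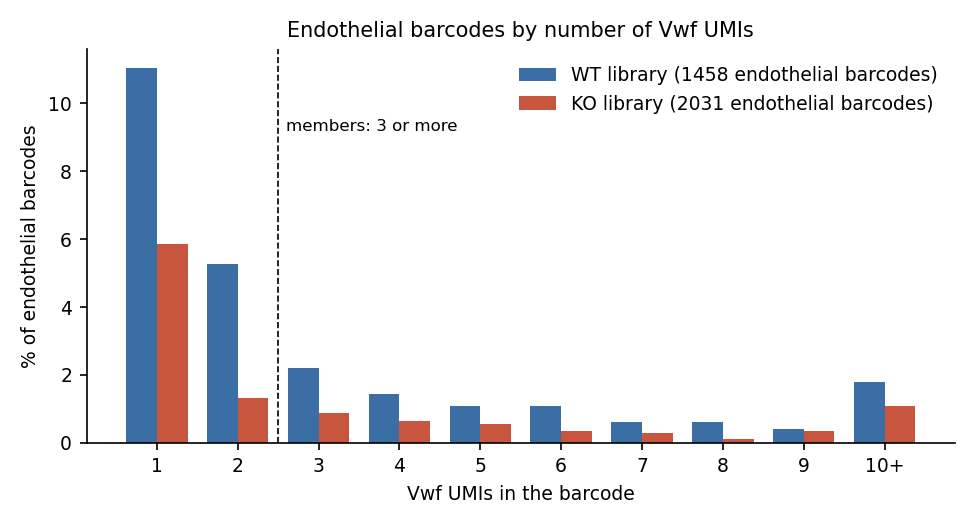
Share of endothelial barcodes (y axis, %) by the number of Vwf UMIs they held (x axis, 1 to 10 or more), in the WT library (blue, 1458 endothelial barcodes) and the KO library (red, 2031), with the dashed line at the threshold of 3. The WT bar is the higher one at every number of UMIs, from 5.28% against 1.33% at 2 UMIs to 1.78% against 1.08% at 10 or more.

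Vwf-positive cells made up a smaller share of endothelial barcodes in the KO library. Endothelial barcodes, those that passed every other part of the rule, numbered 1458 in WT and 2031 in KO, and those without Vwf held leukocyte RNA (below). Of these, 9.26% (exact 95% interval 7.82 to 10.9%) were Vwf-positive in WT and 4.23% (3.40 to 5.20%) in KO, a log2 ratio of -1.13 (-1.54 to -0.73). Barcodes with only 1 or 2 Vwf UMIs showed the same order, 16.3% in WT and 7.19% in KO. Among endothelial barcodes with at least 3 of the 4 endothelial genes, 14.4% of 928 in WT and 6.92% of 1228 in KO were Vwf-positive. The log2 ratio there was -1.06 (-1.47 to -0.66). Of all kept barcodes the Vwf-positive cells were 1.19% and 0.676%, a log2 ratio of -0.81 (-1.22 to -0.41), while endothelial barcodes as a whole were 12.8% in WT and 16.0% in KO.

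The order of the shares was the same after depth had been made equal. With each barcode thinned to 3000 UMIs and the rule applied again, 60 of 1005 WT (5.97%) and 36 of 1667 KO endothelial barcodes (2.16%) were Vwf-positive. Barcodes with fewer than 3000 UMIs were left out there. The KO library was the deeper one, both in its Vwf-positive cells and in its Vwf-zero endothelial barcodes (medians 5971 UMIs against 4413 in WT). As a measure of free RNA, 3.39% of WT and 2.73% of KO B cells held a Vwf UMI (914 and 1502 B cells, medians 3887 and 5214 UMIs), and 1.63% and 1.23% after thinning. Without the barcodes past the platelet gate the shares were 8.94% and 4.28%. A lower share of Vwf-positive cells and less Vwf RNA per cell cannot be told apart from this count, since the threshold on Vwf sets both.

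Cut by a few vessel genes, the Vwf-positive cells fell largely into separate sets. This split was made after the values had been seen, so the sets are described without a test. At least 3 UMIs of Rspo3, a secreted enhancer of Wnt signalling, were found in 69 WT (51.1%) and 44 KO cells (51.2%) that did not pass the portal and arterial cut. At least 3 UMIs in sum of Adgrg6, an adhesion G-protein-coupled receptor, Gja5, the gap junction protein connexin 40, and Bmx, a tyrosine kinase of arterial endothelium, were found in 22 WT (16.3%) and 26 KO cells (30.2%). Both cuts were passed by 2 WT and 4 KO cells. This separation depended on the genes used. Wider sums took Adgrg6, Ltbp4, Ntn4 and Efnb2 as portal and Rspo3, Wnt9b, Wnt2 and Cdh13 as central vein genes. At 3 UMIs in each sum, 58 of 135 WT and 57 of 86 KO cells passed both. The remaining 42 WT (31.1%) and 12 KO cells (14.0%) passed neither the Rspo3 cut nor the Adgrg6, Gja5 and Bmx cut. Rspo3 lies at chr10:29452416-29535867 on the minus strand, and Adgrg6 at chr10:14402583-14545659 on the minus strand.

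**Figure D2:**
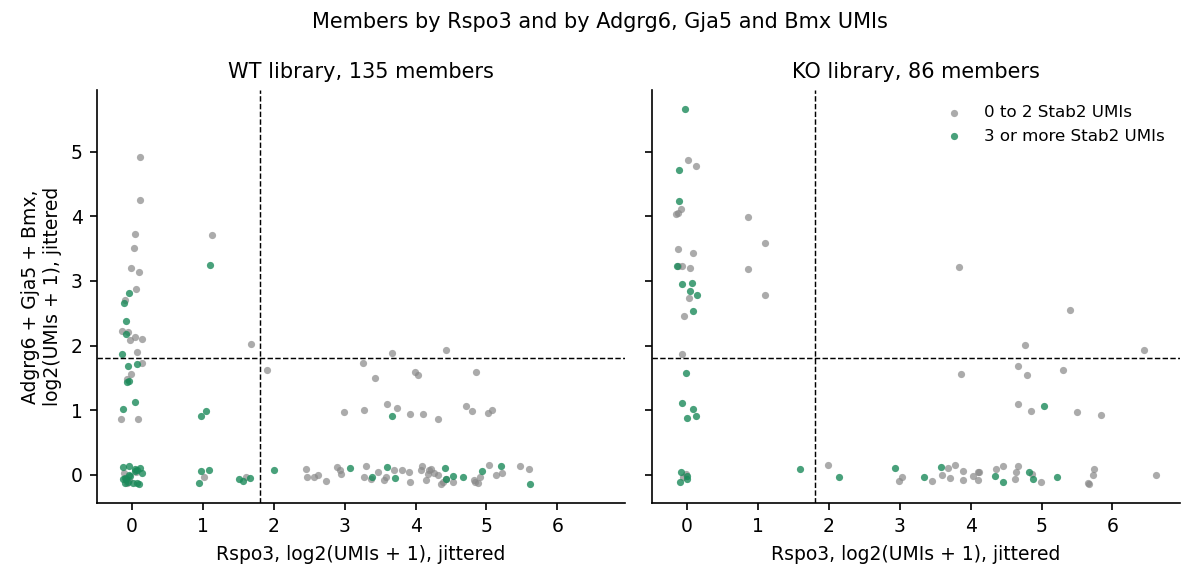
Each point is a Vwf-positive cell of the WT library (left, 135 cells) or KO library (right, 86 cells), placed by its Rspo3 UMIs (x axis) and its summed Adgrg6, Gja5 and Bmx UMIs (y axis), both as log2(UMIs + 1) with a small jitter; dashed lines mark 3 UMIs and green points hold 3 or more Stab2 UMIs. Few cells lie in the upper right, 2 in WT and 4 in KO. Most cells at the lower left are green, 31 of 42 in WT and 10 of 12 in KO. Green points also lie in the Rspo3 set (13 of 69 WT and 10 of 44 KO cells) and in the other set (6 of 22 and 9 of 26).

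The remaining cells were those with the most sinusoidal RNA. At least 3 Stab2 UMIs were found in 31 of these 42 WT cells (73.8%) and in 10 of the 12 KO cells (83.3%). In the Rspo3 set the numbers were 13 of 69 (18.8%) and 10 of 44 (22.7%), and in the Adgrg6, Gja5 and Bmx set 6 of 22 and 9 of 26. For comparison, 17 of 914 WT and 44 of 1502 KO B cells held 3 or more Stab2 UMIs. The remaining cells were also the shallower ones (medians 7428 and 8291.5 UMIs, against 8880 and 10280.5 in the Rspo3 set and 9263 and 10526.5 in the other set), and their median Vwf count was lower, 4 and 3.5 UMIs against 6 and 5 in the Rspo3 set and 7 and 6.5 in the other. Summed over 21 sinusoidal genes, their RNA stood at 12609 CPM in WT and 9663 in KO. That is near the 12799 and 12045 CPM of endothelial barcodes without Vwf, and above the 5495 and 5835 CPM of the Rspo3 set and the 6316 and 4850 CPM of the Adgrg6, Gja5 and Bmx set.

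Set by set, the KO share of endothelial barcodes was lowest relative to WT in the remaining cells. They were 2.88% of endothelial barcodes in WT and 0.591% in KO, with a log2 ratio of -2.29 (-3.35 to -1.33). For the Rspo3 set these shares were 4.73% and 2.17% (log2 ratio -1.13, interval -1.71 to -0.56). The Adgrg6, Gja5 and Bmx set was 1.51% and 1.28% of them (log2 ratio -0.24, with an interval from -1.11 to 0.65 that includes 0). Within the Vwf-positive cells alone, the Adgrg6, Gja5 and Bmx set took a larger share in KO (log2 ratio 0.89, 0.02 to 1.78) and the remaining cells a smaller one (-1.16, -2.22 to -0.20). The cuts that made the sets used raw UMIs and were not repeated at equal depth. The KO Vwf-positive cells were deeper, with medians of 10271.5 UMIs against 8414 in WT. The part of depth in these ratios was not tested. Whether these sets differ from each other in their KO to WT ratio was not tested either.

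The sets were then drawn without using Vwf, from endothelial barcodes that held at least 3 of the 4 endothelial genes. Rspo3 at 3 UMIs or more marked 153 of 928 such barcodes in WT (16.5%) and 140 of 1228 in KO (11.4%), a log2 ratio of -0.53 (-0.87 to -0.19). Within these Rspo3-positive barcodes the Vwf level was 473 CPM (436 to 513) in WT and 344 CPM (313 to 378) in KO, a log2 ratio of -0.46 (-0.64 to -0.28). Of them 46.4% in WT and 34.3% in KO held at least 3 Vwf UMIs; the barcodes held 7592 and 8543.5 UMIs at the median. Thinned to 3000 UMIs, 61.2% in WT and 48.4% in KO held any Vwf UMI. So in the Rspo3-positive endothelium both the share of barcodes and the Vwf level were lower in the KO library.

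For the portal and arterial genes the intervals were wider. Adgrg6, Gja5 and Bmx marked 30 of 928 barcodes in WT (3.23%) and 44 of 1228 in KO (3.58%), a log2 ratio of 0.15 (-0.55 to 0.87). Their Vwf level was 709 CPM in WT and 593 CPM in KO, a log2 ratio of -0.26 whose interval reaches 0.03. After thinning, 75.9% and 66.7% held a Vwf UMI.

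Central vein genes were higher in the Rspo3 set than in the Adgrg6, Gja5 and Bmx set. The Wnt ligand Wnt2 stood at 274 CPM in the WT and 312 CPM in the KO cells of this set, against 9.92 and 3.83 CPM in the Adgrg6, Gja5 and Bmx set. Wnt9b stood at 54.2 and 49.9 CPM and had no UMI in the other set in either library, so it was at least 3.64-fold (WT) and 4.35-fold (KO) higher, taking 3 UMIs per library as the floor. Bmp4, a bone morphogenetic protein, was at 244 and 204 CPM against 4.96 and 23.0 CPM. Kit, the receptor of stem cell factor, was at 148 and 172 CPM against 9.92 and 19.2 CPM. Wnt2, Bmp4 and Kit were among the genes with the largest difference between the sets in both libraries, so their difference follows from that choice. Of all 3156 genes compared, 87 (2.76%) were at least 2-fold higher in the Rspo3 set in both libraries. Of markers of other cells, the 8 mesothelium genes also summed higher in the Rspo3 set, to 258 and 298 CPM against 29.8 and 57.5 CPM. Nearly all of that was Gpm6a, a neuronal and mesothelial membrane protein, at 250.0 and 296 CPM in the Rspo3 set. The neutrophil genes summed to 1066 and 3148 CPM in the Rspo3 set, 972 and 682 CPM in the Adgrg6, Gja5 and Bmx set and 1060 and 2722 CPM in the remaining cells. The part of these cells in the set differences was not tested.

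Selp was also a gene of the Rspo3 set: 4539 CPM in WT and 4494 CPM in KO, against 690 and 1042 CPM in the Adgrg6, Gja5 and Bmx set and 1004 and 2465 CPM in the remaining cells. The log2 ratio between the named sets was 2.71 (2.47 to 2.97) in WT and 2.10 (1.93 to 2.30) in KO. Thrombomodulin (Thbd), an anticoagulant receptor, was at 477 and 396 CPM against 268 and 161 CPM. The interleukin 1 receptor Il1r1 was at 1069 and 1097 CPM against 273 and 406 CPM. Egfem1, Cyp1b1 and the growth factor Tgfb2 had no UMI in the Adgrg6, Gja5 and Bmx set of either library. They too were among the genes with the largest difference between the sets, and that difference follows from the choice. In the Rspo3 set Egfem1 stood at 280 and 188 CPM, against 11.2 CPM in WT and 538 CPM in KO in the remaining cells. Cyp1b1 stood at 143 and 134 CPM in the Rspo3 set and Tgfb2 at 81.3 and 184 CPM.

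Other genes were higher in the Adgrg6, Gja5 and Bmx set. The genes named here were among those with the largest difference between the sets in both libraries. Their difference follows from that choice. Neuregulin 1 (Nrg1), a ligand of ErbB receptors, stood at 1077 CPM in WT and 2126 CPM in KO, against 96.4 and 104 CPM in the Rspo3 set. The transcription factor Mecom was at 1518 and 3199 CPM against 178 and 264 CPM. The lymphangiogenic ligand Vegfc was at 1067 and 1693 CPM against 51.2 and 85.9 CPM, and Efnb2, a ligand of arterial endothelium, at 362 and 578 CPM against 27.1 and 51.9 CPM. Ly6a, a surface protein of large-vessel endothelium, was at 3909 and 2272 CPM against 517 and 449 CPM.

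Matrix genes were shared unevenly between the sets. Hmcn1, which encodes the basement membrane protein hemicentin, was at 729 and 1184 CPM in the Adgrg6, Gja5 and Bmx set against 18.1 and 43.9 CPM in the Rspo3 set. Ltbp4, a microfibril-bound protein that holds latent TGF-beta, was at 347 and 283 CPM against 30.1 and 41.9 CPM. Hmcn1 and Ltbp4 were among the genes with the largest difference between the sets, so their difference follows from that choice. Elastin (Eln) was at 94.3 and 91.9 CPM against 6.02 and 18.0 CPM. Fibulin 2 (Fbln2) by contrast was at 268 and 555 CPM against 288 and 322 CPM. Edn1, the vasoconstrictor endothelin 1, was near in WT, at 1087 CPM in the Adgrg6, Gja5 and Bmx set against 1307 CPM in the Rspo3 set. In KO it was lower in the former, at 425 against 1039 CPM. In all, 87 of 3156 genes (2.76%) were at least 2-fold higher in the Rspo3 set in both libraries, and 79 (2.5%) in the Adgrg6, Gja5 and Bmx set.

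**Figure D3:**
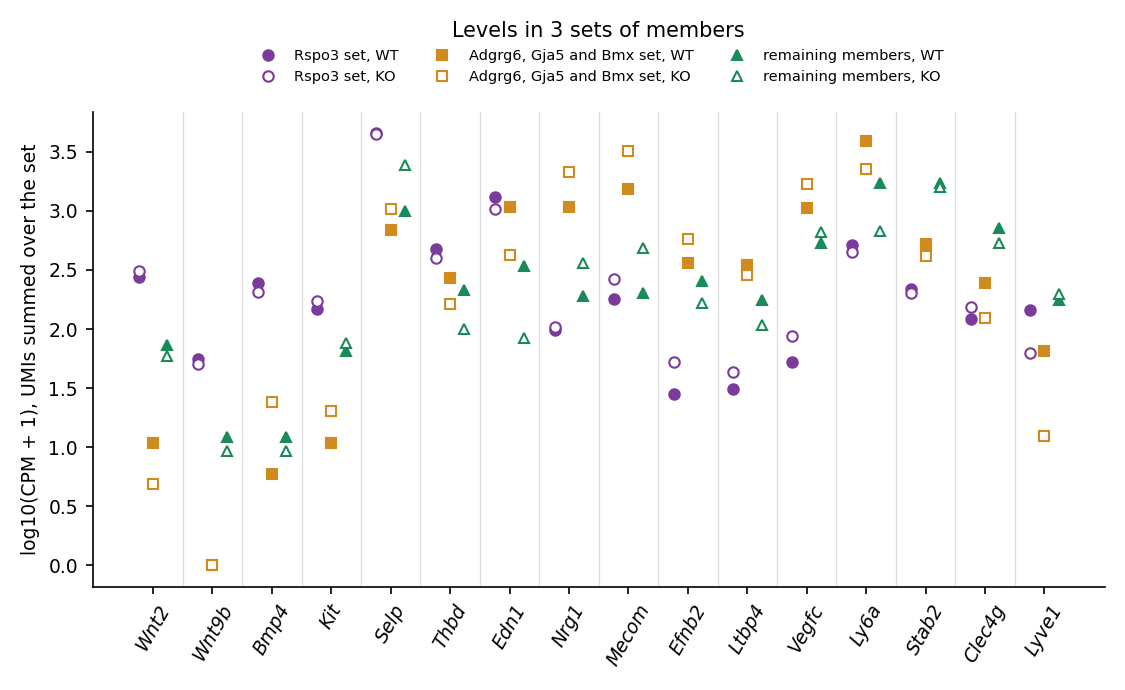
Level of each gene (y axis, log10 of CPM + 1) in the Rspo3 set (purple circles), the Adgrg6, Gja5 and Bmx set (orange squares) and the remaining cells (green triangles), with filled symbols for the WT and open symbols for the KO library. Wnt2, Wnt9b, Bmp4, Kit and Selp are highest in the Rspo3 set, Nrg1, Mecom, Efnb2, Ltbp4, Vegfc and Ly6a in the orange set, and Stab2 and Clec4g in the remaining cells. Of these, Wnt2, Bmp4, Kit and the genes highest in the orange set were among those with the largest difference between the sets.

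Vwf-positive cells as a whole were next compared with endothelial barcodes without any Vwf UMI. UMIs were summed per library and class, which gave 4 sums, and edgeR's quasi-likelihood test with the library as a block was adjusted by the Benjamini-Hochberg method over all genes. With 1 residual degree of freedom the spread is borrowed across genes, and it is the spread between 2 libraries that are also the 2 genotypes. The 1085 WT and 1799 KO barcodes without Vwf that passed the rest of the rule held leukocyte RNA: Ptprc, the pan-leukocyte antigen CD45, stood there at 914 and 963 CPM, against 173 and 134 CPM in Vwf-positive cells. A stricter comparison group was therefore added after the data had been seen, the 590 WT and 1036 KO of these barcodes that held at least 3 of the 4 endothelial genes (Ptprc 280 and 390 CPM, medians 4609.5 and 6565 UMIs). It is called the Vwf-negative endothelium below. Rule genes were given no test.

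Against the wider group, 1490 of 12139 genes (12.3%) were higher and 1625 (13.4%) lower in Vwf-positive cells at an adjusted p under 0.05. Against the Vwf-negative endothelium 745 of 11069 genes (6.73%) were higher and 527 (4.76%) lower. These counts moved with the method: DESeq2 called 653 higher and 705 lower against the wider group and 294 and 81 against the stricter one. Among genes with at least 100 UMIs, the connexin Gja5 had the largest increase against the wider group, a log2 fold change of 7.68 ± 0.49 (SE, edgeR adjusted p = 6.15e-10), from 0.541 and 0.0828 CPM to 35.6 CPM in WT and 65.2 CPM in KO. Pcdh9, a protocadherin, followed with 6.21 ± 0.20 (edgeR adjusted p = 6.67e-14) at 189 and 217 CPM. Bmp4 was higher by 6.20 ± 0.22 (edgeR adjusted p = 1.47e-13) at 138 and 130 CPM, and Nrg1 by 5.29 ± 0.18 (edgeR adjusted p = 6.67e-14) at 290 and 720 CPM. The other 8 of the 12 largest increases were Thsd7a, Cyp1b1, Adamtsl1, Dnm3, Fbln2, Samd5, Stard13 and Fmo2, between 4.77 and 5.62.

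The largest decrease against the wider group was that of 1700011B04Rik, with no UMI in Vwf-positive cells of either library and at least 6.16-fold (WT) and 3.46-fold (KO) lower. The other 11 of the 12 were Cxcr6, Ccdc192, Sytl2, Myb, Tcrg-C4, Gm21762, Fpr3, Siglech, Gm19585, Gm16337 and S1pr5. Cxcr6, a chemokine receptor of T and natural killer cells, also had no UMI in Vwf-positive cells and was at least 4.82-fold (WT) and 4.18-fold (KO) lower. With DESeq2 the calls of 1700011B04Rik, Cxcr6, Ccdc192 and S1pr5 were lost. Myb, Tcrg-C4 and Gm21762 got no adjusted p there, so they were not called either. The plasmacytoid dendritic cell gene Siglech was the only 1 of the 12 strongest decreases with enough counts to be tested against the Vwf-negative endothelium too, at -3.36 ± 0.73 (edgeR adjusted p = 0.00193). That call of Siglech was lost with DESeq2 (adjusted p = 0.204) and with no library block (edgeR adjusted p = 0.128). In that stricter comparison the strongest decrease was Csmd1 at -4.31 ± 0.49 (edgeR adjusted p = 3.14e-07), with 0.810 and 2.14 CPM in Vwf-positive cells against 23.6 and 36.5 CPM. The other 11 of the 12 included Sox9 (-4.15), a factor of bile duct cells, Pilrb1 (-3.13), the potassium channel gene Kcnj2 (-3.11), the Tie2 ligand Angpt1 (-2.91), the granzyme Gzmc (-2.82) and the neutrophil elastase Elane (-2.80). The decrease of Elane lay in the WT library, with a log2 ratio of -3.60 there and -0.12 in KO. The Vwf-negative endothelium thus also held RNA of genes known from bile duct cells and leukocytes.

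**Figure D4:**
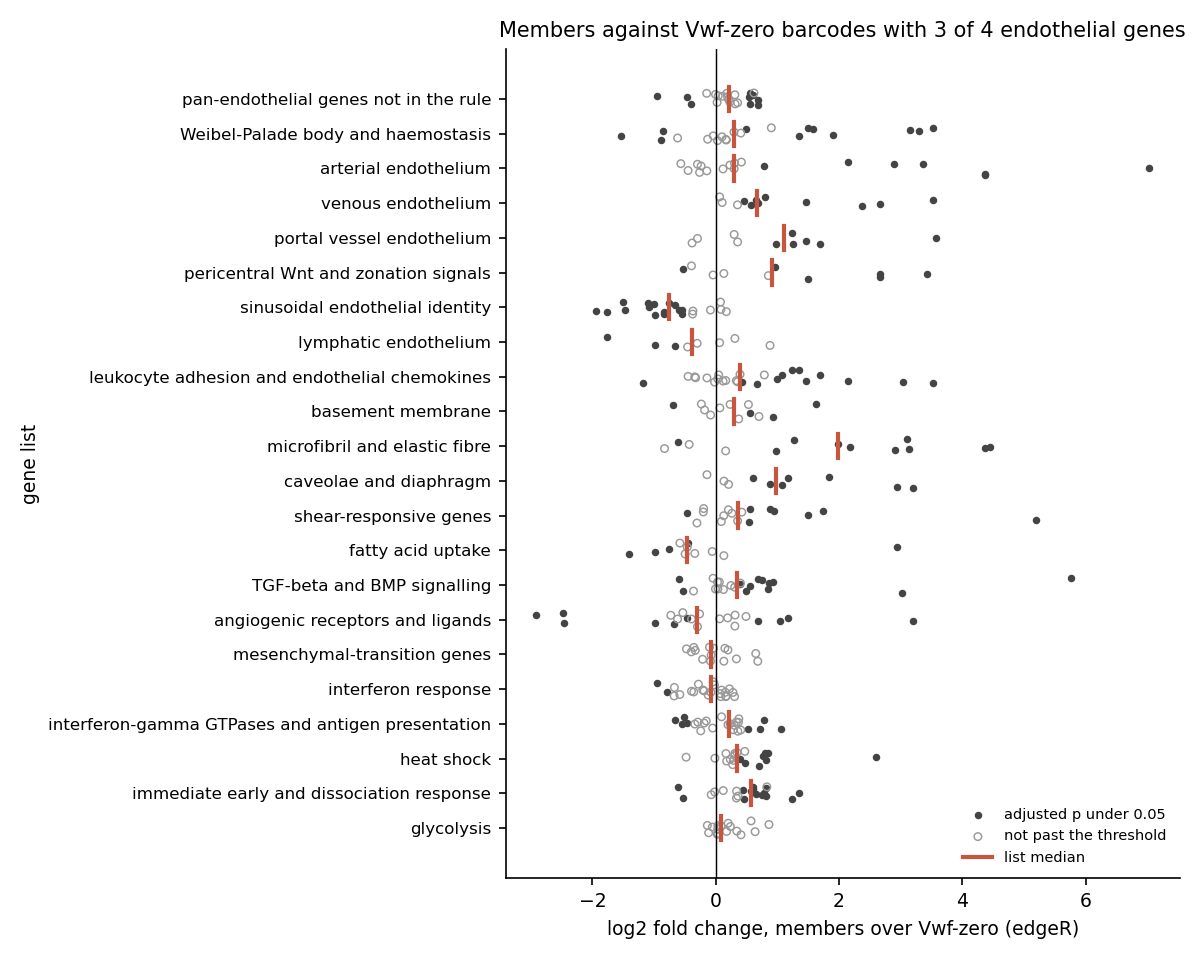
Each point is a gene of the list named at the left, placed by its log2 fold change of Vwf-positive cells over Vwf-negative endothelium (x axis, edgeR), filled where the adjusted p was under 0.05; red bars are list medians. The sinusoidal list lies mostly left of 0 (median -0.76) and the microfibril list mostly right of it (median 1.98).

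Genes of haemostasis and vessel storage organelles were partly higher in Vwf-positive cells. Of 21 tested, 8 were higher and 3 lower than in Vwf-negative endothelium, with a median log2 fold change of 0.30 against 0.00 for all genes. Of all genes, 6.73% were higher and 4.76% lower. Selp stood at 2906 CPM in WT and 3349 CPM in KO, against 277 and 285 CPM, a log2 fold change of 3.52 ± 0.12 (edgeR adjusted p = 5.08e-17). Edn1 stood at 999 and 721 CPM against 126 and 63.6 CPM (3.29 ± 0.15). Coagulation factor V (F5) stood at 386 and 189 CPM against 45.2 and 21.9 CPM (3.16 ± 0.15), and Thbd at 368 and 275 CPM against 139 and 97.2 CPM (1.50 ± 0.14). The members that were lower were Tfpi, an inhibitor of tissue factor (-0.89 ± 0.14), the urokinase receptor Plaur (-0.86 ± 0.18) and Rab3b (-1.53 ± 0.41). Selp lies at chr1:164115264-164150026 on the plus strand and overlaps 2 annotated genes on the opposite strand, and the sources used here do not say whether counting used the strand.

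Most vessel-type genes outside the sinusoid that passed the test were higher, and 1 was lower. Of 12 venous genes 9 were higher and 0 lower (median 0.67), of 10 portal genes 6 and 0 (1.11), of 10 central vein and zonation genes 5 and 1 (0.91), and of 18 arterial genes 7 and 0 (0.30). Rspo3 stood at 1025 and 1370 CPM against 156 and 84.4 CPM (3.43 ± 0.19). Wnt9b was higher by 2.67 ± 0.33 and Wnt2 by 0.97 ± 0.16. Bmp2, a regulator of hepatic iron handling, was the zonation gene that was lower (-0.53 ± 0.15). The arterial Notch ligand Jag1 was higher by 2.90 ± 0.25, Mecom by 3.37 ± 0.20 and Adgrg6 by 3.58 ± 0.20.

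Sinusoidal identity genes were lower. Of 21 tested, 15 were lower and 0 higher than in Vwf-negative endothelium, with a median of -0.76. Stab2, the hyaluronan scavenger receptor, stood at 706 CPM in WT and 429 CPM in KO against 2025 and 2359 CPM (-1.94 ± 0.16, edgeR adjusted p = 7.89e-10). Clec4g stood at 311 and 186 CPM against 722 and 667 CPM (-1.47 ± 0.15), and Lyve1 at 139 and 64.2 CPM against 366 and 330 CPM (-1.76 ± 0.18). Against the wider group, which held more leukocyte RNA, 8 of the 21 were lower and 4 higher. Coagulation factor VIII (F8) and the transcription factor Gata4 did not pass the test against the Vwf-negative endothelium, at 0.17 ± 0.12 and 0.09 ± 0.13.

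The matrix list that includes the partners of Mfap2 had the highest median of the lists shown. Of 13 microfibril and elastic fibre genes tested, 9 were higher and 1 lower (median 1.98). Fbln2 stood at 223 and 398 CPM against 18.6 and 12.3 CPM (4.44 ± 0.22), and Fbln5, which organises elastic fibres, at 78.5 and 83.4 CPM against 5.23 and 3.35 CPM (4.36 ± 0.26). The proteoglycan biglycan (Bgn) stood at 633 and 542 CPM against 201 and 118 CPM (1.98 ± 0.14). Fibrillin 1 (Fbn1), the core of microfibrils, stood at 87.5 and 131 CPM against 35.7 and 56.9 CPM (1.27 ± 0.16). Eln was higher by 2.90 ± 0.36 and Mgp, an inhibitor of calcification, by 3.13 ± 0.35. Emilin1 was the gene that was lower (-0.61 ± 0.18). Summed over the list, the level was 1416 and 1318 CPM in the Rspo3 set, 2064 and 1881 CPM in the Adgrg6, Gja5 and Bmx set and 801 and 778 CPM in the remaining cells, against 496 and 408 CPM in the Vwf-negative endothelium.

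Adhesion and permeability genes also differed. Of 25 leukocyte adhesion and chemokine genes, 11 were higher and 1, the chemokine Ccl5, was lower (median 0.40). E-selectin (Sele) stood at 296 and 341 CPM against 67.4 and 80.5 CPM (2.15 ± 0.14), and Vcam1, which binds leukocyte integrins, at 1672 and 1694 CPM against 446 and 884 CPM (1.47 ± 0.16). Cd200, an inhibitory ligand for myeloid cells, was higher by 3.04 ± 0.26. Of 10 genes of caveolae and their diaphragms, 7 were higher and 0 lower (median 0.98), among them Plvap, the diaphragm protein of vessels without open fenestrae, at 313 and 297 CPM against 110 and 70.7 CPM (1.84 ± 0.15).

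Signalling lists were mixed. Of 22 TGF-beta and BMP genes, 10 were higher and 2 lower (median 0.35), with Bmp4 at 5.76 ± 0.24, Tgfb2 at 3.02 ± 0.28 and the receptor Tgfbr2 at 0.93 ± 0.13. Of 21 angiogenic receptors and ligands, 4 were higher and 6 lower (median -0.30). Vegfc was among the higher (1.05 ± 0.14), and the tip cell gene Esm1 (-2.48 ± 0.21) and Kdr (-0.47 ± 0.14) among the lower. Tek was higher by 0.68 ± 0.13. Of 15 mesenchymal-transition genes none passed the test against the Vwf-negative endothelium (edgeR), and 2 were higher and 4 lower of 17 against the wider group. Of 11 genes of fatty acid uptake, 1 was higher and 4 were lower, including Fabp5 (-0.99 ± 0.13). The shares over all genes were 6.73% higher and 4.76% lower.

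Stress and activation genes were partly higher. Of 21 immediate early and dissociation genes, 12 were higher and 2 lower than in Vwf-negative endothelium (median 0.57), and of 19 heat shock genes 8 were higher and 0 lower (median 0.35). The small heat shock gene Hspb1 stood at 278 and 750 CPM against 49.4 and 124 CPM (2.60 ± 0.14). Against the wider group the heat shock median was -0.06 with 5 higher and 0 lower. Of 23 type I interferon genes 0 were higher and 2 lower than in Vwf-negative endothelium, where 6.73% of all genes were higher and 4.76% lower. The part of cell isolation in these levels was not tested.

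Between genotypes, 9044 genes had at least 20 UMIs over both sums of Vwf-positive cells. Of these, 380 (4.2%) were at least 2-fold higher and 353 (3.9%) at least 2-fold lower in the KO library, with a median log2 ratio of 0.03. In the Vwf-negative endothelium of the same libraries 471 of 12816 genes (3.68%) were past 2-fold higher and 414 (3.23%) lower. Scaling by the median of ratios in place of the UMI total moved all log2 ratios by -0.07.

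The genes highest in KO Vwf-positive cells included interferon-inducible and heat shock genes. Gm4070, of a family of very large interferon-inducible GTPases whose near-identical copies may share reads, stood at 38.9 CPM in WT and 168 CPM in KO, a log2 ratio of 2.09 (1.64 to 2.61). Ifit1, an interferon-induced RNA-binding protein, stood at 76.1 and 253 CPM (1.73, 1.39 to 2.10), and the chaperone Hsph1 at 507 and 1675 CPM (1.72, 1.59 to 1.86). These genes were higher in the KO Vwf-negative endothelium too, by log2 ratios of 1.98, 1.69 and 2.04.

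A further group had a larger ratio in Vwf-positive cells than in Vwf-negative endothelium. Dnm3, a dynamin, stood at 40.5 and 130 CPM, a log2 ratio of 1.67 (1.20 to 2.19) against 0.60 (-0.37 to 1.95). The long non-coding RNA Mir100hg stood at 105 and 329 CPM (1.64 against 0.66), the glycolytic regulator Pfkfb3 at 51.8 and 155 CPM (1.57 against 0.45), and Thsd7a at 150 and 427 CPM (1.51 against 0.59). The mineralocorticoid receptor Nr3c2 stood at 101 and 289 CPM (1.51 against 0.69). These genes were named for a high ratio in Vwf-positive cells, a choice that favours a lower ratio in any other group. For Thsd7a the interval was 1.26 to 1.77 in Vwf-positive cells and -0.09 to 1.43 in Vwf-negative endothelium. Levels there were low, 2.94 and 4.83 CPM for Dnm3 and 6.54 and 10.2 CPM for Thsd7a. The difference between these ratios was not tested. For Dnm3 the log2 ratio was 0.60 in the Rspo3 set and 2.52 in the Adgrg6, Gja5 and Bmx set, and for Mir100hg 1.42 and 2.48. Of the Pde4c UMIs, 73.6% in WT and 77.6% in KO came from 5 cells.

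Genes of the vessel lists went both ways in the Vwf-positive cells. Of all genes, 4.2% were at least 2-fold higher in KO and 3.9% at least 2-fold lower. Of 18 arterial genes 2 were at least 2-fold higher in KO and 2 at least 2-fold lower. Of 10 portal genes 1 was higher (log2 ratio 1.48) and 0 lower, and of 9 central vein and zonation genes 1 and 1. Mecom and Cdh13 are given here from among the higher genes and were chosen after their values were seen. Mecom stood at 408 CPM in WT and 1119 CPM in KO, a log2 ratio of 1.45 (1.30 to 1.61), with 0.03 in the Vwf-negative endothelium. The cadherin Cdh13 stood at 713 and 1702 CPM, a log2 ratio of 1.26, with 0.01 in the Vwf-negative endothelium. Within the Adgrg6, Gja5 and Bmx set, which took a larger share of the KO cells, Mecom stood at 1518 and 3199 CPM. It stood at 178 and 264 CPM in the Rspo3 set and at 201 and 480 CPM in the remaining cells. The part of the set shares in the Mecom ratio was not tested.

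Genes lowest in KO Vwf-positive cells included lipid-handling and surface genes. Armcx4 stood at 126 CPM in WT and 31.0 CPM in KO, a log2 ratio of -1.99 (-2.65 to -1.45). Gpihbp1, which carries lipoprotein lipase across endothelium, stood at 1022 and 406 CPM (-1.33, -1.50 to -1.16), with -1.10 in the Vwf-negative endothelium. Fabp5, a fatty acid binding protein, stood at 613 and 255 CPM (-1.26), with -1.58 there. Lrg1, a glycoprotein that modifies TGF-beta signalling, stood at 316 and 129 CPM (-1.28), with -1.99 there. Ly6c1, which has near-identical neighbours, stood at 119 and 29.9 CPM (-1.95). The metallothionein Mt1 stood at 304 and 109 CPM (-1.47), with -0.55 in the Vwf-negative endothelium. The lectin Clec1b, Cirbp, Tuba1a, Myc, Romo1 and Ndufs3 completed the 12, between -1.51 and -1.26. Some of these ratios depended on the cells taken. Over all alternatives the log2 ratio ran from -2.90 to -0.58 for Ly6c1, from -3.53 to -1.07 for Mt1, from -3.35 to -1.05 for Myc, from -2.69 to -1.51 for Armcx4 and from -1.92 to -0.74 for Lrg1. Among the genes higher in KO it ran from 0.93 to 1.90 for Hsph1, from 0.85 to 1.90 for Nr3c2, from 0.93 to 1.59 for Pfkfb3, from 1.10 to 2.36 for Thsd7a, from 1.12 to 2.67 for Pde4c and from 1.96 to 3.27 for Gm4070. None of the 24 named genes changed sign.

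The heat shock list was the most uniform between genotypes. All 19 genes with enough UMIs had a log2 ratio above 0, where 52.2% of all genes did, and 7 were at least 2-fold higher in KO. The median was 0.76 in Vwf-positive cells and 0.75 in Vwf-negative endothelium. It was 0.57 in the Rspo3 set, 0.91 in the Adgrg6, Gja5 and Bmx set and 0.93 in the remaining cells. The chaperonin Hspd1 stood at 98.0 and 294 CPM (1.58, 1.27 to 1.91). Hspa1a and Hspa1b, whose near-identical sequences may share reads, stood at 1692 and 2112 CPM and at 2717 and 4053 CPM.

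Interferon genes were higher in KO at the median. Of 23 type I interferon genes 16 were above 0 and 4 past 2-fold (median 0.39, against 0.81 in the Vwf-negative endothelium). Of all genes, 52.2% were above 0 and 4.2% past 2-fold higher. With tighter gates on other cells, which left 19 WT and 10 KO cells, the type I interferon median was -0.53. Oasl1, an oligoadenylate synthetase-like gene, stood at 45.3 and 145 CPM (1.67, 1.22 to 2.16). Ifit2 stood at 90.7 and 158 CPM (0.80) where the Vwf-negative endothelium had 1.89. Zbp1, a nucleic acid sensor, was the gene past 2-fold lower, at 17.0 and 4.28 CPM. Of 23 interferon-gamma and antigen presentation genes 16 were above 0 (median 0.47, against 0.61, and -0.26 with the tighter gates), among them the GTPases Gbp6 at 81.8 and 193 CPM (1.23) and Irgm1 at 93.1 and 217 CPM (1.22).

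Metabolic lists were lower at the median. Of all genes, 3.9% were past 2-fold lower in KO. Of 16 glycolysis genes 13 were below 0 and 3 past 2-fold lower (median -0.62, against -0.75 in the Vwf-negative endothelium), while Pfkfb3 was higher (above). Gapdh stood at 598 and 305 CPM (-0.97) and Eno1 at 46.2 and 17.1 CPM (-1.37, -2.33 to -0.61). Of 10 fatty acid uptake genes 8 were below 0 and 3 past 2-fold lower (median -0.25, against -0.27). The list summed to 5629 CPM in WT and 2840 CPM in KO, and the fall lay mostly in those 3 genes, Fabp4, Gpihbp1 and Fabp5. Fabp4 stood at 3331 and 1604 CPM, a log2 ratio of -1.05 (-1.14 to -0.97), where the Vwf-negative endothelium had -1.95. In B cells it stood at 192 and 91.5 CPM.

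Sinusoidal genes were lower at the median in the KO Vwf-positive cells as a whole, but not in the Rspo3 set. Of 21 genes 15 were below 0 and 4 past 2-fold lower (median -0.48, against -0.11 in the Vwf-negative endothelium). Of all genes, 3.9% were past 2-fold lower. Clec1b stood at 93.9 and 32.1 CPM (-1.51), Lyve1 at 139 and 64.2 CPM (-1.10) and Dnase1l3 at 533 and 262 CPM (-1.02). The median was 0.17 in the Rspo3 set, -0.19 in the Adgrg6, Gja5 and Bmx set and -0.39 in the remaining cells. Those remaining cells, which held the most sinusoidal RNA, were a smaller share of the KO cells. The part of the set shares in the lower median was not tested.

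**Figure D5:**
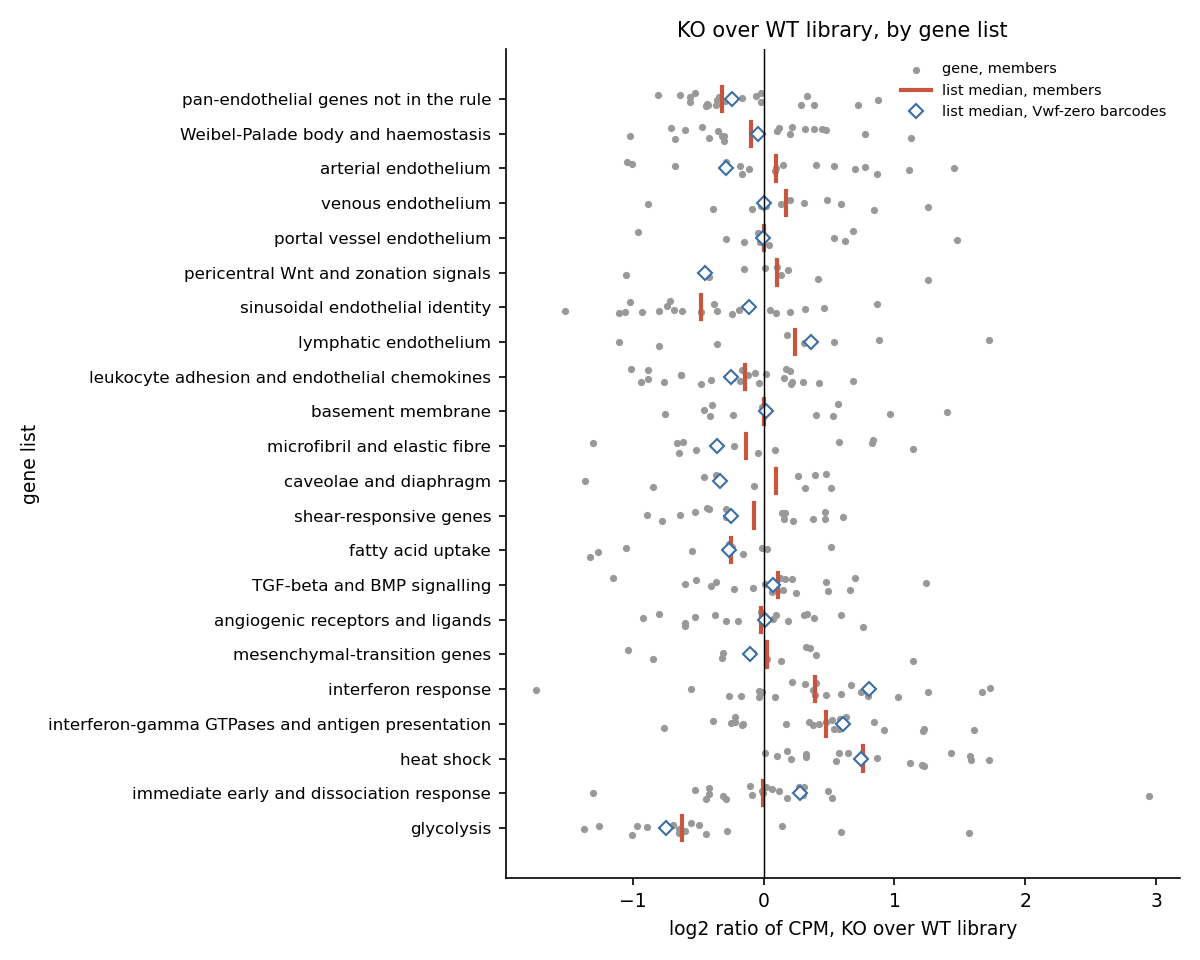
Each grey point is a gene of the list named at the left, placed by the log2 ratio of its CPM in KO over WT Vwf-positive cells (x axis); red bars are list medians in Vwf-positive cells and blue diamonds list medians in Vwf-negative endothelium (labelled Vwf-zero barcodes). Heat shock lies right of 0 in both (0.76 and 0.75), glycolysis left of 0 in both (-0.62 and -0.75), and the sinusoidal median is -0.48 against -0.11.

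Other lists had medians near 0 in all Vwf-positive cells, but several moved with tighter gates on other cells, which left 19 WT and 10 KO cells. The median log2 ratio was -0.10 for haemostasis genes, 0.09 for arterial, 0.17 for venous and 0.01 for portal genes, -0.13 for microfibril genes, -0.14 for adhesion genes, 0.11 for TGF-beta and BMP genes, and -0.00 for immediate early genes. With the tighter gates the median was -1.41 for immediate early, 0.58 for microfibril, -0.59 for adhesion, 0.47 for venous and -0.41 for TGF-beta and BMP genes. Single genes departed from these: F5 stood at 386 and 189 CPM (-1.02), the activin subunit Inhbb at 172 and 77.0 CPM (-1.15), and Tgfb2 at 46.2 and 110 CPM (1.24, 0.77 to 1.75). The immediate early factor Egr3 had the largest ratio of its list, 4.05 and 36.4 CPM (2.95, 1.81 to 4.88). Among partners of Mfap2, Fbln2 stood at 223 and 398 CPM (0.84, 0.61 to 1.07) and Mgp at 49.4 and 19.3 CPM (-1.30).

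Several measures of other cells and of RNA quality moved with genotype in the Vwf-positive cells. Malat1, a nuclear RNA, took 1.20% of UMIs in WT and 1.77% in KO, and mitochondrial genes 2.85% and 2.58%. The summed level of 8 neutrophil genes, all detected, was 1044 CPM in WT and 2265 CPM in KO, while its median per cell was 903 and 676 CPM and its highest value in a KO cell 74318 CPM. The 12 platelet genes summed to 222 and 67.4 CPM (1 and 3 of them at 0), the 7 erythroid genes to 495 and 148 CPM (2 at 0 in KO), and the 12 hepatocyte genes to 112 and 286 CPM. The 12 macrophage genes summed to 1354 and 1020 CPM, against 8317 CPM in all other kept WT barcodes. Their part in the genotype differences was not tested, except that the share of Vwf-positive cells was as given above without the platelet gate.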

How the data were processed

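The deposited matrices hold raw UMI counts for each gene in each barcode. Per the file headers they come from Cell Ranger 7.0.1, while the submitters' processing notes list Cell Ranger 3.1.0, Seurat and mm10. Use of strand and of intronic reads is not given in the sources used here. Of 32285 gene identifiers, 32158 (99.6%) occur in GENCODE M21 (GRCm38), used for positions only. No gene sequence is shown. The members and lists were chosen with earlier results of these data known.

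Depth is given as UMI totals. UMIs were summed per library and class and scaled to CPM. Nothing states how many animals a library holds, so each genotype is 1 sample: genotype ratios (1 count added to each sum) have exact conditional 95% Poisson intervals and shares Clopper-Pearson intervals, both for counting error only. Vwf-positive and Vwf-zero sums were compared with edgeR 4.0.16 (R 4.3.3; TMM, filterByExpr, quasi-likelihood test, library block, Benjamini-Hochberg adjusted p under 0.05), and DESeq2 1.42.0 was an alternative. Matrices were read with Python 3.11.15, numpy 2.4.6 and scipy 1.17.1. Doublets were not removed in the main values. As an alternative, the highest Scrublet scores (scanpy 1.11.5) were removed at 0.8% per 1000 barcodes, because the automatic threshold marked 0 WT barcodes.

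Named genes were the 12 highest and 12 lowest of each comparison with at least 100 UMIs, without rule, mitochondrial, ribosomal protein, haemoglobin and immunoglobulin genes. Between genotypes they also had to reach the level of all other kept barcodes, and between classes to pass the test with 1 sign in both libraries. Genes of the lists came in addition. The split by Rspo3 and by Adgrg6, Gja5 and Bmx, and the stricter comparison group, were chosen after the data were seen.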

Additional observations from a re-analysis of the deposited data

Results flagged for a closer look

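For 7 list genes the log2 ratio of Vwf-positive cells over Vwf-negative endothelium had opposite signs in the WT and KO libraries, each with a counting interval without 0. The difference between the libraries was not tested, because each genotype had 1 library. The ratio was negative in WT and positive in KO for Clu, a secreted chaperone (-0.24 and 0.42), for Fabp4 (-0.36 and 0.54) and for Smad7, an inhibitor of TGF-beta signalling (-0.29 and 0.30). It was positive in WT and negative in KO for the sinusoidal gene Ehd3 (0.15 and -0.41), the chemokine Cxcl2 (0.31 and -0.33), the interferon-gamma GTPase Iigp1 (0.64 and -0.16) and Myc (0.41 and -0.70).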

How the results depend on the processing

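The lower share of Vwf-positive cells in KO kept its direction under every alternative run, with log2 ratios from -1.47 (rule on thinned counts) to -1.05 (at least 5 Vwf UMIs). Counts of genes depended on the processing. Higher in Vwf-positive cells were 1490 genes, and 425 with the rule on thinned counts, 154 with tighter gates on other cell types, 936 with sums thinned to 3000 UMIs, 653 with DESeq2 and 487 with no library block. Against the Vwf-negative endothelium they were 745, and there 437 thinned, 608 with doublets removed, 294 with DESeq2 and 212 with no library block. Lower were 1625 genes, and 499 with the rule on thinned counts, 295 with tighter gates, 705 with DESeq2 and 661 with no library block. Against the Vwf-negative endothelium they were 527, and there 300 thinned, 371 with doublets removed, 81 with DESeq2 and 32 with no library block. Higher in KO by 2-fold were 380 genes, and 190 with the rule on thinned counts, 206 with tighter gates, 179 with at least 50 UMIs and 216 without the 5 richest barcodes per gene. Lower were 353, and 140, 185, 140 and 532 in that order, and 148 with 5 counts added. Tighter gates left 19 WT and 10 KO cells, and there the KO to WT medians of general endothelial genes (0.15), interferon genes (-0.53) and interferon-gamma genes (-0.26) had the opposite sign. The cause was not tested. Of all list medians under the alternatives, 314 stayed within the spread, 13 moved beyond it and 3 were these reversals. Of named class calls, 409 held and 9 were lost, all 9 among the lower genes. Settings in which the fit gave a gene no adjusted p are left out of these counts, among them DESeq2 for Myb, Tcrg-C4 and Gm21762. Of named KO to WT ratios, 311 stayed within the counting interval and 30 moved beyond it, with no change of sign; the ranges stand in the report. No paired analysis was possible because the labels give no replicate numbers and 1 library per genotype; the library block is not a pairing of animals. Low-count genes are limited by the 86 KO cells.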
